A study of Mus musculus with 12 samples.

Results

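The receptors and ligands through which gonadotropins, growth hormone, anti-Müllerian hormone and KIT ligand act on the ovarian follicle were examined in mouse granulosa cells, the cells that surround the oocyte and line the follicle. The genes were chosen by name, with all probe sets that the array annotation assigns to them: Fshr, Lhcgr, Prlr, Ghr, Amh, Amhr2 and Kitl. Of the 7 listed genes 5 had at least 1 named probe set, 12 probe sets in all, among 18194 genes with a symbol. Lhcgr and Prlr, the receptors of luteinizing hormone and prolactin, were not analysed here, because no probe set carried their symbol in the annotation used.

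Granulosa RNA was hybridised to 12 Affymetrix arrays in 4 groups of 3: Ex6DEL at 4 h after human chorionic gonadotropin (hCG), Ex6DEL at 0 h, wild type (WT) at 4 h and WT at 0 h. Ex6DEL mice lack exon 6 of Snf2l (symbol Smarca1), an ATPase of ISWI chromatin remodellers, and WT mice were littermates. The deletion was made by crossing a 129Sv line with a loxP-flanked exon 6 to a CD-1 line with a ubiquitously expressed Gata-1 Cre, and the Ex6DEL line was then kept on a 129SV background without Cre. All females were given 5 IU of PMSG, a gonadotropin from pregnant mares, at 24 to 26 days of age. The 0 h cells were taken 48 h later, and the 4 h groups received 5 IU of hCG at that point and were sampled 4 h after it. PMSG mimics follicle-stimulating hormone (FSH), and hCG acts through the luteinizing hormone receptor and sets off ovulation. Each array held cells pooled from 5 mice, pressed out of follicles punctured with a needle. Whether replicate arrays carry different pools is not in the labels, so p-values measure only the spread between these arrays, which may be technical.

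The FSH receptor, Fshr, is a receptor coupled to G proteins that raises cAMP in granulosa cells and drives the growth of antral follicles. Anti-Müllerian hormone (AMH) is made by granulosa cells of small growing follicles and signals through its own type II receptor, Amhr2, and through type I receptors and SMADs shared with bone morphogenetic proteins (BMPs). The growth hormone receptor, Ghr, signals through JAK2 and STAT5, and Kitl encodes the ligand of KIT, which acts on the oocyte and on theca cells.

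Values are log2 intensities, with a floor of 2.21 that marks probe sets not told from background. Array medians lay between 2.75 and 2.91, and no 2 arrays held the same values. Granulosa markers were high on every array: the mean of 5 of 6 listed markers (among them Inha and Gja1) lay between 13.42 and 15.50. Smarca1 itself ranged from 10.72 to 12.19 in Ex6DEL and from 10.80 to 12.32 in WT cells at 4 h, and from 10.61 to 10.96 in Ex6DEL and from 10.31 to 11.10 in WT cells at 0 h; an array value for the whole gene does not show whether exon 6 is missing, so it does not check the genotype. Arrays that stood apart were Ex6DEL 0 h replicate 3, where 13 ovulatory genes induced by luteinizing hormone averaged 11.27 against 5.64 and 5.75 on the other arrays of its group, and WT 0 h replicate 1, at 6.84 against 5.49 and 5.59. At 4 h this mean was 12.32 to 13.10 in Ex6DEL and 11.91 to 13.46 in WT cells. The 11.91 came from WT 4 h replicate 3, against 13.46 and 13.02 on the other arrays of its group, and this array was not counted among those that stood apart. Over all genes Ex6DEL 0 h replicate 3 was most like WT 4 h replicate 3 (r = 0.987), against at most 0.980 with the arrays of its own group. Ex6DEL 0 h replicate 1 stood apart in theca and stroma markers, whose mean over 10 of 11 listed genes was 12.11 there and between 7.57 and 9.34 on the other 11 arrays. All 10 of these markers had their highest value on that array. Leaving out all 3 arrays that stood apart leaves Ex6DEL 0 h replicate 2 as the only array of its group. Values and calls without all 3 therefore rest on that array for Ex6DEL at 0 h, which then has no spread of its own.

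Fshr had the largest hCG response of the 4 members tested. Its log2 level, from a single probe set (1450810_at), was 8.28, 7.69 and 8.76 in Ex6DEL cells at 4 h, against 13.57, 12.05 and 12.10 in Ex6DEL cells at 0 h. In WT cells it was 8.63, 9.01 and 10.60 at 4 h, against 11.08, 11.90 and 12.58 at 0 h. Every 4 h array lay below every 0 h array of its genotype, and WT 4 h replicate 3 was the highest of the 4 h arrays. From low to high, the group means were 8.24 ± 0.53 in Ex6DEL at 4 h, 9.41 ± 1.05 in WT at 4 h, 11.85 ± 0.75 in WT at 0 h and 12.57 ± 0.86 in Ex6DEL at 0 h (SD, n = 3 each). In that order the neighbours of the same time point overlapped between genotypes, and the step between WT at 4 h and WT at 0 h had arrays that did not overlap.

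The response to hCG was tested with limma over all genes. Averaged over the genotypes, Fshr fell by 3.39 on the log2 scale (SE 0.46, 95% interval -4.42 to -2.35, limma adjusted p = 0.00545), a 10.5-fold lower level at 4 h. In Ex6DEL cells Fshr fell by 4.34 (SE 0.64, 95% interval -5.80 to -2.87, limma adjusted p = 0.0285). In WT cells the change was -2.44 (SE 0.64, 95% interval -3.91 to -0.97, limma adjusted p = 0.130), which did not pass the threshold of 0.05. The response averaged over genotypes kept its call under each of the alternatives run, with changes of -3.70 to -3.14. The call in Ex6DEL cells is less firm: without Ex6DEL 0 h replicate 1 the change was -3.84 with a limma adjusted p of 0.0707, and without all 3 arrays that stood apart it was -3.81. It was also lost without WT 0 h replicate 2, without Ex6DEL 0 h replicate 2 and without each of the 3 Ex6DEL 4 h arrays, when only the Ex6DEL groups were fitted (limma adjusted p = 0.134), and with the replicate number as a block (0.0507).

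**Figure D1:**
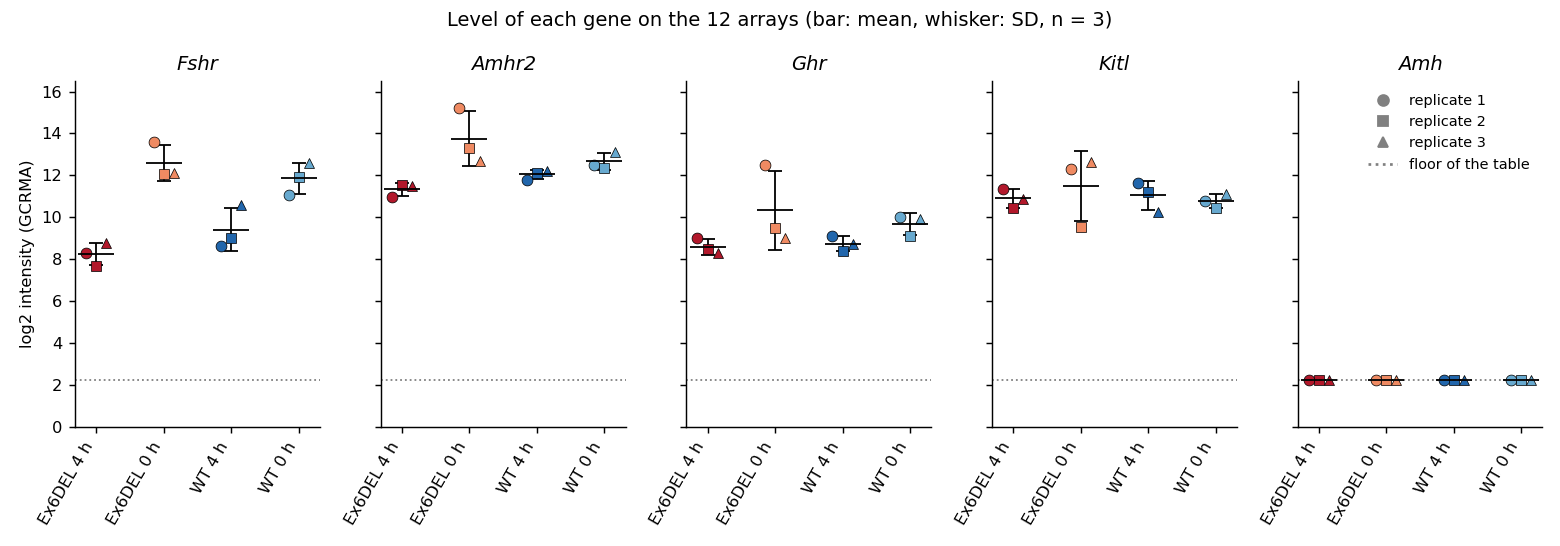
log2 intensity of the leading probe set of each gene on the 12 arrays, by group; points are arrays, the bar is the mean and the whisker the SD (n = 3), and the dotted line is the floor of the table. Fshr is at most 10.60 on the 4 h arrays and at least 11.08 on the 0 h arrays, Ex6DEL 0 h replicate 1 is the highest array for Fshr, Amhr2 and Ghr, and Amh lies on the floor throughout.

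Amhr2, the receptor that binds AMH, was measured by 3 probe sets, and the brightest (1457021_x_at) stands for the gene. Its log2 level was 10.97, 11.54 and 11.48 in Ex6DEL cells at 4 h, against 15.21, 13.31 and 12.69 in Ex6DEL cells at 0 h. WT cells had 11.79, 12.12 and 12.22 at 4 h, against 12.51, 12.37 and 13.11 at 0 h. All 4 h arrays lay below all 0 h arrays of the same genotype, and the highest value of all came from the array with high theca and stroma markers. From low to high, the means were 11.33 ± 0.32 in Ex6DEL at 4 h, 12.04 ± 0.22 in WT at 4 h, 12.66 ± 0.40 in WT at 0 h and 13.74 ± 1.31 in Ex6DEL at 0 h (SD, n = 3 each). In that order Ex6DEL and WT at 4 h did not overlap, nor did WT at 4 h and WT at 0 h, while the 0 h groups overlapped.

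Averaged over the genotypes, Amhr2 fell by 1.52 on the log2 scale (SE 0.40, 95% interval -2.42 to -0.61, limma adjusted p = 0.0471), a 2.86-fold lower level at 4 h. This call lies close to the threshold. Without Ex6DEL 0 h replicate 1 the change was -1.15 with a smaller limma adjusted p of 0.0184. Without that array and both arrays with raised ovulatory genes the change was -1.34. The call was lost without any single one of the 6 WT arrays, without Ex6DEL 0 h replicate 2, or without any of the 3 Ex6DEL 4 h arrays, with changes of -1.62 to -1.40 and limma adjusted p of up to 0.110. It was lost too with the replicate number as a block (0.0825). Within the genotypes the changes were -2.41 (SE 0.56, 95% interval -3.68 to -1.14, limma adjusted p = 0.0643) in Ex6DEL cells and -0.62 (SE 0.56, 95% interval -1.89 to 0.65, limma adjusted p = 0.669) in WT cells. In Ex6DEL cells Amhr2 passed the threshold without the arrays with raised ovulatory genes (-2.93, limma adjusted p = 0.0325), and did not without Ex6DEL 0 h replicate 1 alone (-1.68, 0.0736). Without all 3 arrays that stood apart the change was -1.98, with Ex6DEL 0 h replicate 2 alone in its group.

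In Ex6DEL cells, markers of granulosa cells were lower at 4 h as well, without overlap of the array means. The mean of the 5 granulosa markers was 13.42 to 13.66 in Ex6DEL at 4 h, against 14.82 to 15.50 in Ex6DEL at 0 h. In WT cells the ranges overlapped, with 13.73 to 14.38 at 4 h against 14.05 to 15.03 at 0 h. The median change of these markers was -1.02 in Ex6DEL cells and 0.13 in WT cells. In Ex6DEL cells 1 of 5 was called lower by limma (1.6% of all genes), and 4 had an unadjusted p under 0.05 (18.9% of all genes). The called marker was Hsd17b1, which is also in the list of FSH-dependent genes below. Its call was lost without Ex6DEL 0 h replicate 1 and with the replicate number as a block. In WT cells 0 of 5 were called by limma (0.929% of all genes), and 0 had an unadjusted p under 0.05 (14.4% of all genes). The markers enriched in cumulus cells, Slc38a3 and Npr2 (2 of 3 listed), averaged 8.65 to 9.58 in Ex6DEL at 4 h against 10.83 to 12.28 in Ex6DEL at 0 h, and 9.03 to 9.97 in WT at 4 h against 10.11 to 10.73 in WT at 0 h. Both were called lower in the response averaged over genotypes (6.62% of all genes). The 3 listed markers enriched in mural granulosa cells averaged 9.62 to 10.20 in Ex6DEL at 4 h against 10.79 to 11.26 in Ex6DEL at 0 h. In WT cells their ranges overlapped, with 9.87 to 10.38 at 4 h against 9.67 to 10.52 at 0 h. Of these 3, 1 was called lower in the averaged response, Nppc, which is also in the list of FSH-dependent genes below. The other 2 had changes above 0, and the median change of the 3 was 0.06. No marker of these lists lay at the floor on all arrays, and their part in the changes of Fshr and Amhr2 was not tested.

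The other 2 probe sets of Amhr2 gave changes of the same sign. For 1438967_x_at the change was -2.79 in Ex6DEL cells and -0.84 in WT cells. For 1427989_at, at a level of 6.96 to 11.14, it was -2.35 in Ex6DEL cells and -0.64 in WT cells. None of the 3 was called when each probe set was tested by itself (limma adjusted p = 0.0618 to 0.0880 for the averaged response, where 6.06% of all probe sets were called). A name ending in x_at marks probes that can bind other transcripts, and 1427989_at has no such suffix.

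Of the 4 members tested, 2 were called in the response averaged over genotypes, both lower, where 9.72% of all genes were called, 6.62% lower and 3.1% higher. In Ex6DEL cells 1 of 4 was called, lower, where 2.17% of all genes were called and 1.6% were called lower. In WT cells 0 of 4 were called by limma, with 0.929% of all genes called, and 1 member had an unadjusted p under 0.05, as 14.4% of all genes did. By the plain separation of arrays, Fshr, Amhr2 and Ghr were lower at 4 h without overlap in WT cells, where 11.4% of all genes were, and Fshr and Amhr2 were lower in Ex6DEL cells, where 14.5% were. For Ghr this separation is a tie at 2 decimals, with 9.09 as the highest 4 h and the lowest 0 h value in WT cells. In a bulk sample, fewer cells of a type and less RNA per cell cannot be told apart.

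**Figure D2:**
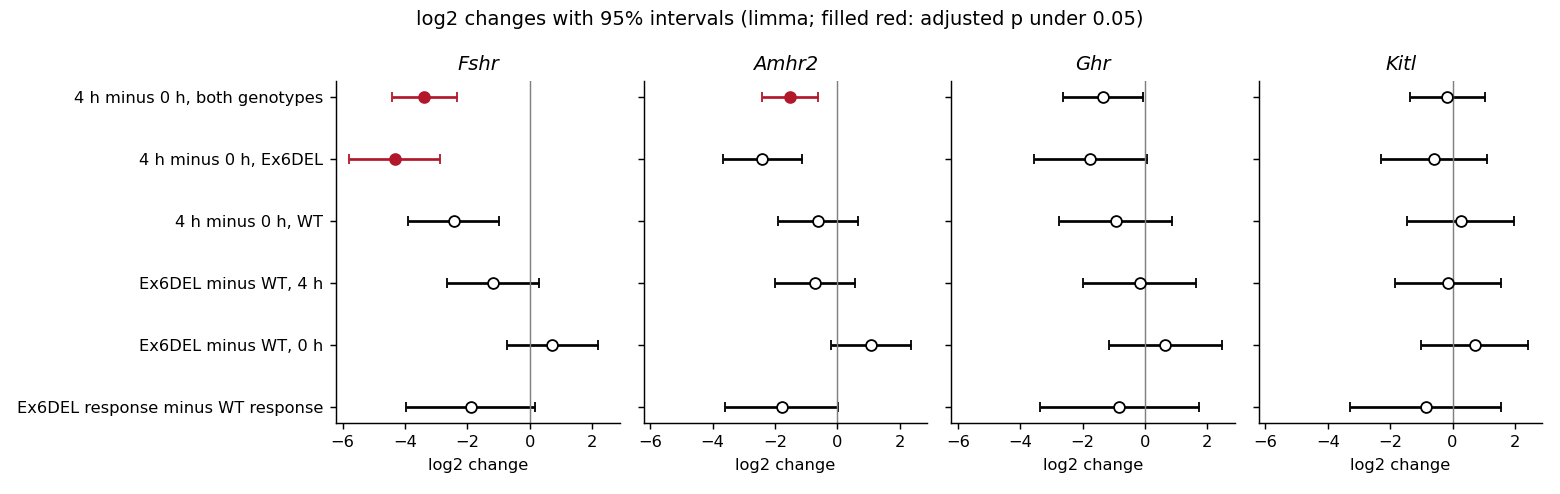
log2 change (points) with 95% intervals (bars) of the 4 tested genes in each comparison, from the limma fit on all arrays; filled red points have an adjusted p under 0.05. The Fshr intervals exclude 0 in each of the 3 hCG responses, and every interval of a difference between genotypes includes 0.

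Fshr and Amhr2 are the members called in the averaged response, so the promoter windows of these genes are shown. The windows are the 250 bases before the start of transcription in RefSeq (build GRCm38.p6), read 5′ to 3′ on the gene's strand, and all members but Amh matched an entry. Capitals mark matches to motifs searched on both strands. The E-box was searched as CACGTG and the site of NR5A receptors as AAGGTCA. The Sp1 site was searched as GGGCGG and the TATA box as TATAAA. The GATA site was searched as AGATAA and the cAMP-responsive site as its core TGACG. None of these overlaps another in the windows shown. The Fshr window lies at chr17:89200676-89200925 on the minus strand, and the Amhr2 window at chr15:102445117-102445366 on the plus strand.

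Fshr: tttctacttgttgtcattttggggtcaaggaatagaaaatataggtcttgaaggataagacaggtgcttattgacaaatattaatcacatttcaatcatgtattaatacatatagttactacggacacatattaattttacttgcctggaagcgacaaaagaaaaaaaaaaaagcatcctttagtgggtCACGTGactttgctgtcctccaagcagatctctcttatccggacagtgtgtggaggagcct

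Amhr2: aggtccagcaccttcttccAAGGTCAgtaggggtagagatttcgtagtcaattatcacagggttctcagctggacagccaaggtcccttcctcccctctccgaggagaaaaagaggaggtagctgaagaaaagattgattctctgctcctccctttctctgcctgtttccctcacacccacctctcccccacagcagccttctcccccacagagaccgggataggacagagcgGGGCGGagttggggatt

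The Fshr window, with 36.8% G and C, held 1 match, an E-box that begins 61 bases before the start. An E-box is bound by USF1 and USF2, and 6.02% of the 32851 windows of that length held these letters. The Amhr2 window, with 55.2% G and C, held an NR5A site 231 bases before the start, the kind of sequence bound by the orphan receptors SF-1 (Nr5a1) and LRH-1 (Nr5a2), and 4.08% of all windows held one. It also held an Sp1 site 17 bases before the start, as 32.7% of all windows did. Neither window held the letters searched for the TATA box, the GATA site or the cAMP-responsive core, and the 2 genes shared no motif of those searched. Other forms of these sites were not searched, so their absence is not shown. A match is a description of the letters and no sign of binding.

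Ghr, which passes the growth hormone signal to JAK2, had 1 array far above the others. Its brightest probe set (1417962_s_at) had a log2 level of 9.01, 8.47 and 8.28 in Ex6DEL cells at 4 h, against 12.50, 9.50 and 9.004 in Ex6DEL cells at 0 h. In WT cells it had 9.09, 8.41 and 8.73 at 4 h, against 10.03, 9.09 and 9.90 at 0 h. The 12.50 came from Ex6DEL 0 h replicate 1, and no other array exceeded 10.03. The Ex6DEL groups overlapped, and in WT cells the highest 4 h value and the lowest 0 h value were both 9.09. From low to high, the means were 8.58 ± 0.38 in Ex6DEL at 4 h, 8.74 ± 0.34 in WT at 4 h, 9.68 ± 0.51 in WT at 0 h and 10.33 ± 1.89 in Ex6DEL at 0 h (SD, n = 3 each), and the neighbours of the same time point overlapped.

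No Ghr comparison was called. The change was -1.75 in Ex6DEL cells (SE 0.80, 95% interval -3.56 to 0.06, limma adjusted p = 0.284), -0.93 in WT cells (SE 0.80, 95% interval -2.74 to 0.88, limma adjusted p = 0.643) and -1.34 on average (limma adjusted p = 0.196). Without Ex6DEL 0 h replicate 1 the change in Ex6DEL cells was -0.67, without Ex6DEL 0 h replicate 3 it was -2.41, and without all 3 arrays that stood apart -0.92. Without Ex6DEL 0 h replicate 1 the difference between genotypes at 0 h was -0.42 in place of 0.66. Probe set 1451501_a_at, at 5.61 to 8.16, gave -0.98 in Ex6DEL cells and -0.36 in WT cells, neither of them called. Probe set 1451871_a_at lay at or near the floor, with a highest value of 3.88 that again came from Ex6DEL 0 h replicate 1.

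**Figure D3:**
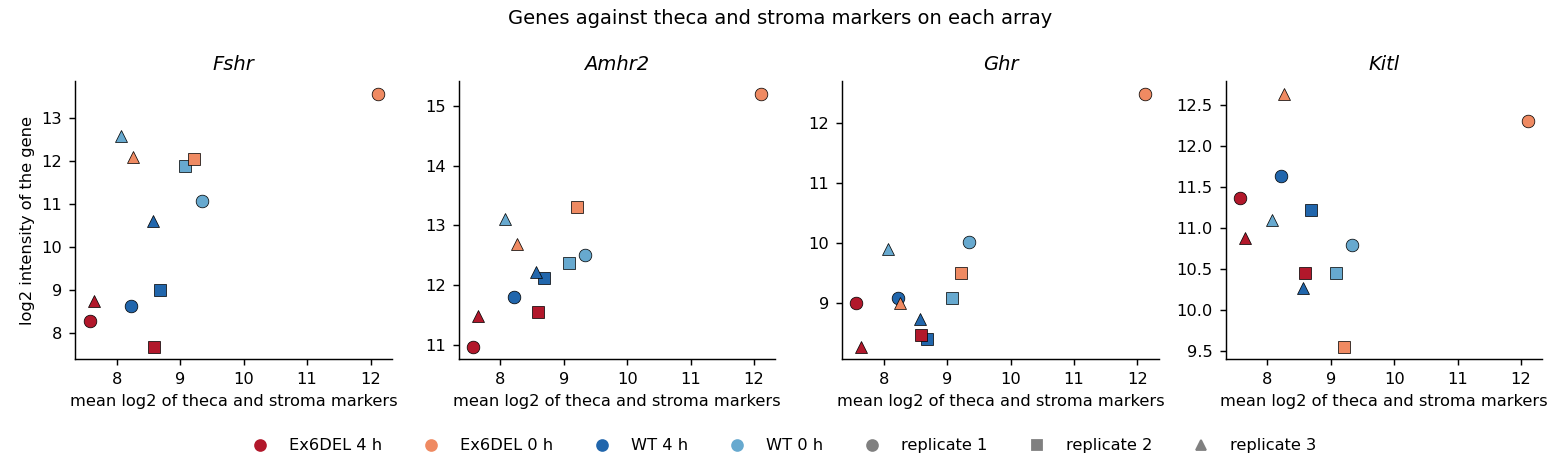
log2 intensity of each gene (vertical axis) against the mean log2 level of 10 theca and stroma markers (horizontal axis) on the 12 arrays; colours are groups and shapes are replicates. Ex6DEL 0 h replicate 1 lies alone at a marker mean of 12.11, with the highest Fshr, Amhr2 and Ghr, while the other 11 arrays lie between 7.57 and 9.34.

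The markers on that array include Cyp17a1, the enzyme of androgen synthesis in theca cells, which reached 15.14 there and lay at or below 12.55 on every other array, and the stromal proteoglycan gene Dcn, at 13.94 there and at or below 10.68 elsewhere. The theca and stroma mean ranged from 7.57 to 8.59 in Ex6DEL at 4 h, from 8.26 to 12.11 in Ex6DEL at 0 h, from 8.22 to 8.69 in WT at 4 h and from 8.07 to 9.34 in WT at 0 h. No measured marker of this list lay at the floor on all arrays. Their part in the levels of Ghr, Amhr2 and Fshr was not tested, beyond the values without that array given above.

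Kitl spread within groups more than between them. Its brightest probe set (1415855_at) had a log2 level of 11.36, 10.45 and 10.88 in Ex6DEL cells at 4 h, against 12.30, 9.56 and 12.63 in Ex6DEL cells at 0 h. WT cells had 11.64, 11.21 and 10.27 at 4 h, against 10.79, 10.45 and 11.10 at 0 h. The Ex6DEL 0 h group held both the highest and the lowest array of all 12, and the groups overlapped in every comparison. The order from low to high was 10.78 ± 0.32 in WT at 0 h, 10.90 ± 0.46 in Ex6DEL at 4 h, 11.04 ± 0.70 in WT at 4 h and 11.50 ± 1.69 in Ex6DEL at 0 h (SD, n = 3 each), and no neighbours in it differed beyond their spread.

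For Kitl the change was -0.60 in Ex6DEL cells (SE 0.75, 95% interval -2.31 to 1.11, limma adjusted p = 0.749) and 0.26 in WT cells (SE 0.75, 95% interval -1.45 to 1.97, limma adjusted p = 1). These intervals leave room for changes of over 1 log2 unit either way, and several alternatives turn the sign. Probe set 1448117_at gave 8.29, 4.02 and 8.34 in Ex6DEL cells at 0 h, the same high, low and high arrays as the brightest probe set. Probe set 1426152_a_at ranged from 3.01 to 7.01, 1415854_at from 2.26 to 3.93, and no Kitl probe set was called in the hCG response of either genotype, where 0.858% (Ex6DEL) and 0.618% (WT) of all probe sets were called.

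**Figure D4:**
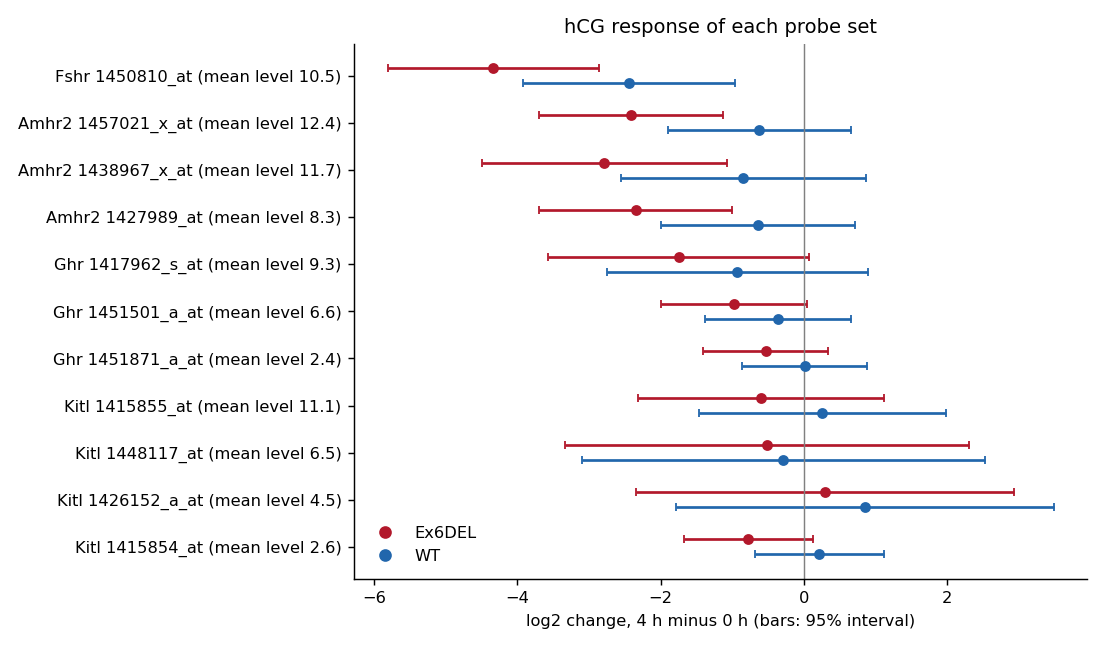
log2 change (4 h minus 0 h) of each tested probe set with its 95% interval, in Ex6DEL (red) and WT (blue), each probe set tested as its own row. All 3 Amhr2 probe sets lie below 0 in both genotypes, with intervals that exclude 0 in Ex6DEL and include it in WT. The 4 Kitl probe sets lie on both sides of 0 with intervals that include it.

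Amh, the hormone that binds the product of Amhr2, was listed at the floor of 2.21 on all 12 arrays by its only probe set (1450573_at). No change can be given for it, and the value does not show that the transcript was missing from the cells.

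The question of the study design, whether loss of exon 6 alters the response, gave no called difference for these genes. By limma, 0 of 4 members differed between Ex6DEL and WT at 0 h (0.033% of all genes called), at 4 h (0% called) or in the response to hCG (0.011% called). In none of the 3 comparisons did a member have an unadjusted p under 0.05, as 5.36%, 1.62% and 3.2% of all genes had, in that order. The estimated response of Ex6DEL minus that of WT cells was -1.90 for Fshr (95% interval -3.97 to 0.18, limma adjusted p = 0.871) and -1.79 for Amhr2 (95% interval -3.59 to 0.01, limma adjusted p = 0.871). These intervals hold 0 as well as differences of more than 3 log2 units. The estimates without Ex6DEL 0 h replicate 1 were -1.40 for Fshr and -1.06 for Amhr2, and without all 3 arrays that stood apart -0.99 and -1.29. Quantile normalization gave -1.08 for Fshr and -0.67 for Amhr2. At 4 h, Amhr2 was lower on each Ex6DEL array than on each WT array, which held for 2.02% of all genes, with a difference of -0.71 (SE 0.56, 95% interval -1.99 to 0.56, limma adjusted p = 1). At 0 h the differences, Ex6DEL minus WT, were 1.08 for Amhr2, 0.72 for Fshr, 0.71 for Kitl and 0.66 for Ghr, and without Ex6DEL 0 h replicate 1 they were 0.34, 0.23, 0.31 and -0.42. The mean of 11 oocyte markers was 7.49 to 8.39 in Ex6DEL at 0 h and 6.53 to 7.52 in WT at 0 h. Of these 11, 0 were called between genotypes at 0 h by limma, and 6 had an unadjusted p under 0.05 (5.36% of all genes). Their part in the member differences was not tested.

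Genes around the receptors were followed in lists chosen for their known roles, with limma over all genes and the response averaged over genotypes. The lists were chosen with earlier results of these data known, so comparing their counts with the shares of all genes is description only. Among 11 measured FSH-dependent granulosa genes, 3 fell and 1 rose, where 6.62% of all genes fell and 3.1% rose. Inhbb, a subunit of activin B and inhibin B, fell by 3.78 (limma adjusted p = 0.00611), with means of 10.27 in Ex6DEL at 4 h, 15.72 in Ex6DEL at 0 h, 12.28 in WT at 4 h and 14.39 in WT at 0 h. Nppc, whose peptide holds the oocyte in meiotic arrest, fell by 2.38 (limma adjusted p = 0.0194), and Hsd17b1, which makes estradiol, fell by 1.80 (limma adjusted p = 0.0213). Igf1r, the receptor of IGF1, rose by 1.71 (limma adjusted p = 0.0224). The median change of the list was -0.74, against -0.01 over all genes. Without Ex6DEL 0 h replicate 1 the same 3 fell and Igf1r rose; without all 3 arrays that stood apart Nppc lost its call.

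In Ex6DEL cells 2 of these 11 were called, both lower, where 1.6% of all genes were: Inhbb fell by 5.45 (limma adjusted p = 0.0269) and Hsd17b1 fell by 2.88 (limma adjusted p = 0.0376), and in WT cells 0 of 11 were called (0.929% of all genes), with 4 at an unadjusted p under 0.05 (14.4% of all genes). Both calls in Ex6DEL cells were lost without Ex6DEL 0 h replicate 1 (limma adjusted p = 0.0707 for Inhbb and 0.104 for Hsd17b1). With the replicate number as a block, Inhbb kept its call (0.0489) and Hsd17b1 did not (0.0612), while the count over all genes was 92 with the block and 394 without it.

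In the AMH and BMP pathway, 2 of 16 measured genes fell and 1 rose, where 6.62% of all genes fell and 3.1% rose. Id3, a target of BMP signalling, fell by 2.39 (limma adjusted p = 0.00808), with means of 8.46 in Ex6DEL at 4 h, 11.62 in Ex6DEL at 0 h, 9.09 in WT at 4 h and 10.71 in WT at 0 h. Bmpr1b, a type I receptor, fell by 1.43 (limma adjusted p = 0.0283), and Smad7, an inhibitory SMAD, rose by 0.93 (limma adjusted p = 0.0412). The median change of the list was 0.03, near the -0.01 of all genes. Without Ex6DEL 0 h replicate 1 only Id3 of the list was called, and Bmpr1b and Smad7 had limma adjusted p of 0.0538 and 0.0662. Smad7 was not called with the replicate number as a block (0.0584).

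**Figure D5:**
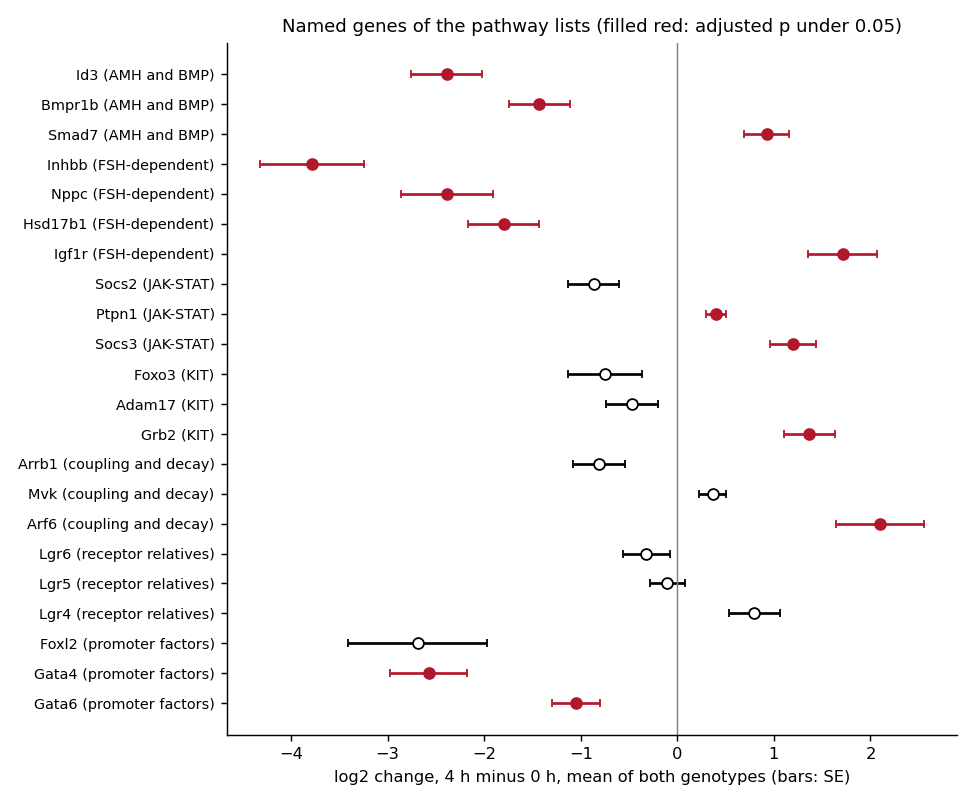
log2 change at 4 h against 0 h, averaged over genotypes, of the named genes of the pathway lists, with SE bars; filled red points have an adjusted p under 0.05. Inhbb, Gata4, Id3 and Nppc lie furthest below 0 among the filled points, and Arf6, Igf1r and Grb2 furthest above it.

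Of the 16 measured transcription factors listed for the promoters of the members, 2 were called, both lower, where 6.62% of all genes were. Gata4 fell by 2.57 (limma adjusted p = 0.00810) and Gata6 fell by 1.05 (limma adjusted p = 0.0351), both zinc finger factors of gonadal somatic cells. Action of the listed factors on the windows shown was not tested. The granulosa factor Foxl2 had a change of -2.69 with a larger spread (SE 0.72, limma adjusted p = 0.0512). With the replicate number as a block, Foxl2 and Nr5a1 were called lower. Gata4 kept its call without Ex6DEL 0 h replicate 1 (limma adjusted p = 0.0172) and Gata6 did not (0.0570), nor did Gata6 with the replicate number as a block (0.0573). Without all 3 arrays that stood apart, which leaves Ex6DEL 0 h replicate 2 alone in its group, neither was called.

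In the remaining lists 0 to 2 genes were called, where 9.72% of all genes were. In the JAK-STAT pathway of growth hormone and prolactin, 2 of 11 measured genes rose, against 3.1% of all genes: the feedback inhibitor Socs3 by 1.19 (limma adjusted p = 0.0194) and the phosphatase gene Ptpn1 by 0.40 (limma adjusted p = 0.0476). Socs2, a feedback inhibitor of Ghr itself, had a change of -0.87 (limma adjusted p = 0.0769). Ptpn1 lost its call without Ex6DEL 0 h replicate 1 (0.0977), and neither Socs3 nor Ptpn1 was called without all 3 arrays that stood apart. In the KIT pathway 1 of 10 was called, a share near that of all genes: the adaptor gene Grb2 rose by 1.37 (limma adjusted p = 0.0171). Of 13 measured genes of receptor coupling and desensitisation, 1 was called, again near the share of all genes: the small GTPase gene Arf6, which acts in the internalisation of receptors, rose by 2.10 (limma adjusted p = 0.0267). Grb2 and Arf6 kept their calls without Ex6DEL 0 h replicate 1. Among 6 relatives of the gonadotropin receptors 0 were called by limma (Lgr4 0.80, limma adjusted p = 0.103), and 1 had an unadjusted p under 0.05, as 23.1% of all genes did. With the replicate number as a block, Lgr4 was called higher. In WT cells none of the 7 lists described here had a gene called by limma (0.929% of all genes). An unadjusted p under 0.05 was found for 4 of 11 FSH-dependent genes, 3 of 11 JAK-STAT genes and 4 of 16 AMH and BMP genes. It was found for 2 of 16 transcription factors, 1 of 6 receptor relatives, 1 of 13 coupling genes and 1 of 10 KIT genes, against 14.4% of all genes. The median changes averaged over genotypes were 0.21 for the JAK-STAT list, -0.02 for the KIT list, -0.31 for receptor coupling, 0.02 for the receptor relatives and -0.35 for the transcription factors, against -0.01 over all genes.

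Patterns over the 12 arrays were compared with those of 5516 genes above the median level that varied by at least 0.5 (SD). The arrays share the change between 0 h and 4 h, so the correlations are descriptions. Fshr was most like Akr1c13 (Pearson r = 0.986), Inhbb (r = 0.983) and Slc25a35 (r = 0.980), and within groups these were 0.908, 0.937 and 0.871. Amhr2 was most like Eci2 (r = 0.974), Hsd11b2 (r = 0.972) and Fyn (r = 0.970). Ghr was most like Kcnt2 (r = 0.976), Snrnp27 (r = 0.975) and Reep3 (r = 0.973). Ghr was 12.50 on Ex6DEL 0 h replicate 1 and at most 10.03 elsewhere. The correlations with the 3 genes most like each member were not computed without that array. Kitl was most like Lysmd3 (r = 0.935), Slc38a2 (r = 0.876) and Samd8 (r = 0.867). Among the members, Fshr and Amhr2 had r = 0.867 over the 12 arrays and 0.628 within groups, Ghr and Amhr2 had 0.876 and 0.835, and Kitl had at most 0.366 with any other. Leaving out Ex6DEL 0 h replicate 1, these were 0.898 for Fshr and Amhr2 and 0.626 for Ghr and Amhr2 over 11 arrays, and without all 3 arrays that stood apart 0.891 and 0.678 over 9 arrays. Kitl then had -0.53 to -0.10 with the others over the 9 arrays.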

How the data were processed

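Granulosa cell RNA of 4 groups of 3 arrays was measured on Affymetrix arrays. The deposited log2 values were made with GCRMA (version not given), per the submitters' processing notes, which corrects background, normalizes between arrays and summarises probes, so low values are compressed towards the floor. Of 45101 probe sets, 34958 had 1 gene symbol, 932 had several and 9211 were not listed; the last 2 kinds were left out. The probe set with the highest mean stood for each of 18194 genes. Members and lists were chosen with earlier results of these data known.

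All 12 arrays were fitted in 4 groups with limma 3.58.1 in R 4.3.3 (lmFit, eBayes, no covariates; 8 residual and 0.626 prior degrees of freedom), tested on simulated data, with two-sided tests, Benjamini-Hochberg adjustment over all genes and calls at an adjusted p under 0.05. The averaged response weights the genotypes equally. Amh had 1 value on all arrays and was not tested. Deviations of same-numbered arrays from their group means correlated at 0.14 to 0.40 in all 3 pairs of Ex6DEL 4 h and 0 h, so numbers may pair those arrays, as a hint from the data. Every other pair of groups had at least 1 correlation under 0.1, down to -0.37. Single pairs across genotypes were higher, at 0.73 for replicate 1 of WT 4 h and Ex6DEL 4 h. For replicate 2 of WT 0 h and Ex6DEL 0 h the value was 0.55. These correlations were not computed for arrays with different numbers, so the hint has no comparison. For members and list genes, values with the replicate number as a block stand beside the named calls that the block removed. In the averaged response the block also added calls among the lists: Lgr4 and Bmp2 higher, and Foxl2, Nr5a1 and Foxo3 lower. In the JAK-STAT list it added Stat3 higher, and Stat5a and Igf1 lower.

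Named genes are the members, list genes called in any comparison (the lowest p up to 3 where fewer were called) and the 3 genes most like each member; marker genes were chosen after values were seen. The number of arrays limits precision. Alternatives are given in the closing section.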

Additional observations from a re-analysis of the deposited data

How the results depend on the processing

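The response of Fshr averaged over genotypes kept its direction and its call under every alternative run. With the fit on the values as deposited, 1 member was called in Ex6DEL cells, 0 in WT cells and 2 in the averaged response. In WT cells the count was 1 when only genes above the median level were tested. In Ex6DEL cells it was 2 after a shift of all arrays to 1 median, with genes above the median level, and without the arrays with raised ovulatory genes (WT 0 h replicate 1, Ex6DEL 0 h replicate 3); it was 0 with only the groups compared (Fshr, limma adjusted p = 0.134) and with the replicate number as a block (0.0507), and leaving out each array gave 0 to 2. No count is given without all 3 arrays that stood apart, which leaves Ex6DEL 0 h replicate 2 alone in its group. In the averaged response it was 1 with low values raised to the table median (Amhr2, limma adjusted p = 0.0538), with the mean of all probe sets (0.0561), with every probe set tested by itself (0.0618) and with the replicate block (0.0825), and leaving out each array gave 1 to 2. Counts for the genotype comparisons were 0 throughout.

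Directions turned for uncalled values. Quantile normalization gave -0.018 for Fshr at 0 h (Ex6DEL minus WT), -0.15 for Kitl in WT cells and 0.030 for Kitl at 4 h. Leaving out each array in turn, Ghr ranged from -0.42 to 1.32 at 0 h, from -0.37 to 0.013 at 4 h and from -1.48 to 0.26 for the interaction, and Kitl from -0.040 to 0.64 in WT cells, from -0.53 to 0.16 at 4 h and from -0.65 to 0.11 on average. Without the arrays with raised ovulatory genes, Kitl had 0.12 on average. A choice made after seeing the data left out these and Ex6DEL 0 h replicate 1. Fshr then had -0.19 at 0 h. Kitl then had 1.34 in Ex6DEL cells, -1.22 at 0 h, 1.08 for the interaction and 0.80 on average. The only Ex6DEL 0 h array left was replicate 2, which had the lowest Kitl value of all arrays (9.56). The cause was not tested.

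Counts over all genes moved widely: 169 were called in WT cells (17 with only the groups compared, 525 with genes above the median level), 394 in Ex6DEL cells (10 and 1334) and 1768 in the averaged response. With the replicate block these counts were 85, 92 and 1717, and the JAK-STAT list had 3 higher and 2 lower calls in the averaged response, in place of 2 higher. The replicate block changed no other call of a member. Signal at the floor limits Amh and the dimmest Ghr and Kitl probe sets.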
